A study of Mus musculus with 6 samples.

Results

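The transcripts described here are those of 10 cyclin genes of the D, E, A, B, F and G types. The cells are from the growing mouse liver and are labelled replicating or quiescent. The genes are Ccnd1, Ccnd2, Ccnd3, Ccne1, Ccne2, Ccna2, Ccnb2, Ccnf, Ccng1 and Ccng2. They were chosen by symbol, not by level, as genes with a probe set whose platform annotation gives no other gene. Each of the 10 had 1 such probe set, and they are 10 of 19938 genes measured. The cells came from the livers of 3 weaned CyclinB1-GFP transgenic mice aged 3.5 weeks, whose transgene, going by its name, couples cyclin B1 to GFP, a green fluorescent protein. After dissociation, cell sorting gave a GFP-positive fraction, labelled replicating, and a GFP-negative fraction, labelled quiescent, with 3 Affymetrix arrays of each. Both fractions carry the transgene, and the labels give neither its promoter nor the width of the sorting gates. The labels also do not show whether cells in an early part of the cycle were sorted as GFP-negative. An uncalled D or E type cyclin is therefore not a result about cycling against resting cells. The sort used a transgene of the same family as the genes described, so higher mitotic cyclins in the GFP-positive fraction are not independent of it. Ccnb1 itself was not analysed here.

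Cyclins are the regulatory subunits of cyclin-dependent kinases (CDKs), and the cell cycle advances as one cyclin type replaces another. D type cyclins are made in response to growth signals and act with Cdk4 and Cdk6 on the retinoblastoma protein, E type cyclins act with Cdk2 at the start of DNA synthesis, cyclin A acts through S phase and into G2, and B type cyclins act with Cdk1 in mitosis. Cyclin F is unusual in being the substrate-binding subunit of a ubiquitin ligase rather than a kinase partner. The G type cyclins are not required for cell cycle progression: Ccng1 is a target of p53, and Ccng2 is raised in many cells that leave the cycle. In the liver, hepatocytes divide in the weeks after birth and then become largely quiescent.

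Among the 10 genes, the cyclins of S phase, G2 and mitosis rose in GFP-positive cells, and none of the D, E and G type cyclins passed the test. Ccna2 was 15.6-fold higher, Ccnb2 8.72-fold higher and Ccnf at least 2.23-fold higher. These 3 of the 10 passed at an adjusted p below 0.05 in limma on the measured values, and none fell. The bound for Ccnf, like the later ones, allows for GFP-negative values below the array medians and not for the spread between arrays. Under 20 other settings Ccna2 and Ccnb2 were always called, and Ccnf was called in 13. At an unadjusted p below 0.05, 5 of the 10 were higher and 0 lower. Over all 19938 genes, 1.55% were called higher and 0.115% lower, and at an unadjusted p below 0.05 the shares were 5.01% higher and 3.79% lower. In 5 of the 10 the lowest GFP-positive value lay above the highest GFP-negative value, against 6.82% of all genes, and in none was the order opposite, against 6.98% of all genes. The 5 were Ccna2, Ccnb2, Ccnf, Ccne2 and Ccng2. Values below are log2 of the deposited intensity, differences are GFP-positive minus GFP-negative on that scale ± SE, and adjusted p-values come from limma over all genes. A level of one probe set cannot be set against that of another. In bulk RNA of sorted cells, more cells with a transcript and more RNA per cell cannot be told apart.

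**Figure D1:**
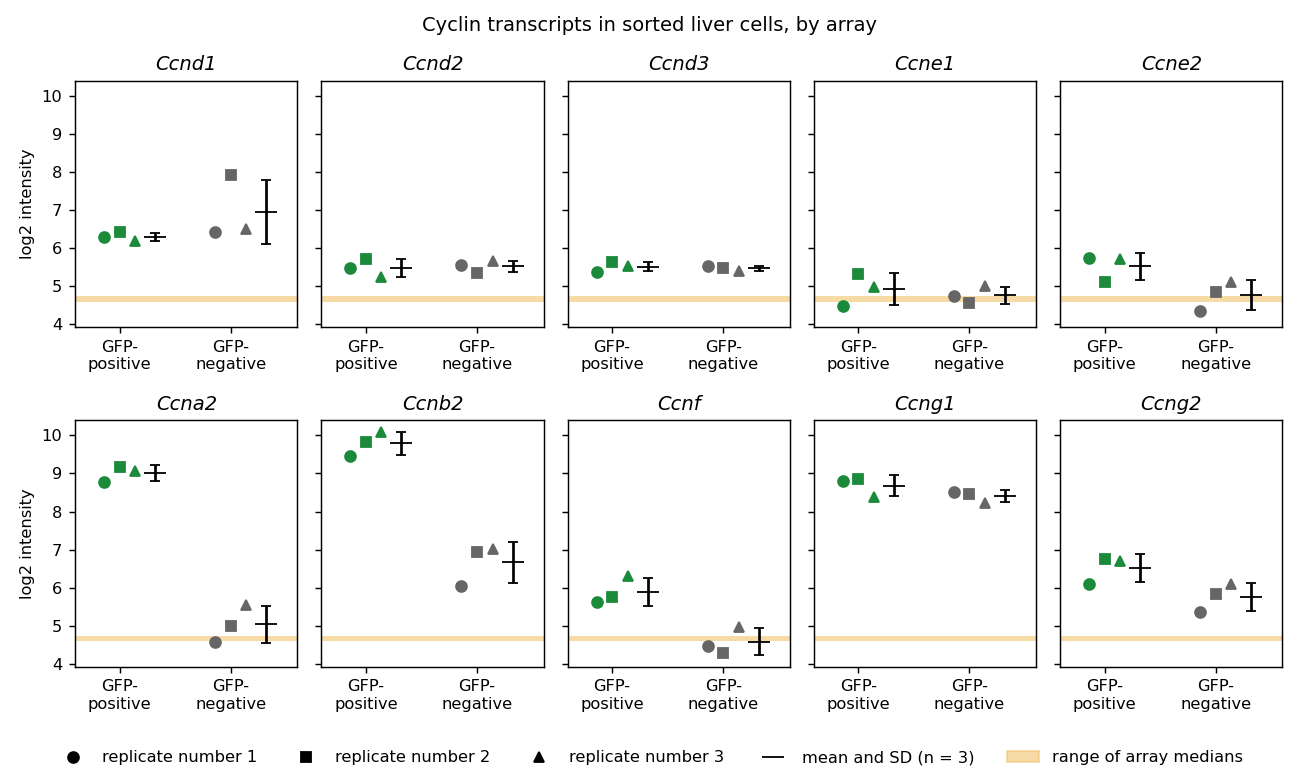
Log2 intensity of the 10 cyclins on each array, with GFP-positive arrays (green) left of GFP-negative arrays (grey), the replicate number as the symbol, and the mean with its SD (n = 3). The band spans the array medians over all probe sets, 4.60 to 4.74. Ccna2, Ccnb2 and Ccnf separate the groups, and Ccnd1 is high on GFP-negative array 2.

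Ccna2 (probe set 10497831) encodes cyclin A2, the A type cyclin of dividing body cells. It stood at 8.77, 9.18 and 9.06 on GFP-positive arrays 1, 2 and 3, against 4.57, 4.98 and 5.55 on GFP-negative arrays 1, 2 and 3. The groups lay far apart, and the value on GFP-negative array 1 was just below that array's median. The difference was 3.97 ± 0.24 (adjusted p = 1.1e-05, limma), and the means were 9.0 ± 0.21 on GFP-positive and 5.03 ± 0.49 on GFP-negative arrays (SD, n = 3 each). Within replicate numbers 1, 2 and 3 the difference was 4.19, 4.19 and 3.51.

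Ccnb2 (probe set 10594774) encodes cyclin B2, a partner of Cdk1 that is found largely at the Golgi. It stood at 9.46, 9.83 and 10.08 on the GFP-positive arrays and at 6.04, 6.92 and 7.03 on the GFP-negative arrays. All GFP-negative values lay clearly above the array medians, although those medians are not a limit of detection. The difference was 3.12 ± 0.27 (adjusted p = 0.00014, limma), and the means were 9.79 ± 0.31 on GFP-positive and 6.66 ± 0.54 on GFP-negative arrays (SD, n = 3 each). Within the 3 numbers it was 3.42, 2.91 and 3.05.

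Ccnf (probe set 10448506) encodes cyclin F, which marks proteins such as the ribonucleotide reductase subunit Rrm2 for destruction. It stood at 5.63, 5.75 and 6.31 on the GFP-positive arrays and at 4.46, 4.29 and 4.97 on the GFP-negative arrays. The GFP-negative mean of 4.58 lay below the array medians, so the fold of at least 2.23 was computed with lower GFP-negative values raised to their array's median. The measured difference was 1.32 ± 0.23 (adjusted p = 0.017, limma), and within the 3 numbers it was 1.17, 1.46 and 1.33. The call rested on single arrays. The adjusted p was 0.058 without GFP-positive replicate 3, 0.084 without GFP-negative replicate 1 and 0.064 without GFP-negative replicate 2, with differences of 1.11, 1.26 and 1.18. It was also not called with 16 added to each value before the log (0.92, adjusted p = 0.082), or with all values raised to the array medians (1.16, adjusted p = 0.069).

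The promoters of Ccnb2 and Ccnf are shown because these genes rose and their promoters hold a pair of motifs known from genes of mitosis. The CHR (TTTGAA) is bound by the MuvB complex, which represses such genes in resting cells and activates them in G2. CCAAT boxes are bound by the factor NF-Y. The RefSeq windows (GRCm38.p6) run from 250 bases before to 50 bases after the annotated start, and positions count from that start. Windows were matched for 6 of the 10 genes, and Ccna2, Ccnd1, Ccnd2 and Ccne2 had none. The Ccnb2 stretch is chr9:70421540-70421734 and the Ccnf stretch chr17:24251395-24251589, both on the minus strand from position -180 to position 15, written 5′ to 3′ with CHR and CCAAT matches in capitals.
Ccnb2: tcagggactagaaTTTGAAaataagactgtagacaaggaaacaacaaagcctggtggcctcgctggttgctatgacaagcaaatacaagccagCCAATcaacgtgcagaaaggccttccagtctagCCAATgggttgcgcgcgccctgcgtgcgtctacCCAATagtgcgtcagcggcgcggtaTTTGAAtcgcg
Ccnf: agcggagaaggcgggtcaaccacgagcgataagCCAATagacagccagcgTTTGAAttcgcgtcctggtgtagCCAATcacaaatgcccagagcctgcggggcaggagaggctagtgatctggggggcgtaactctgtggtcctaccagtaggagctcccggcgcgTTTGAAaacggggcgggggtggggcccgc

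The Ccnb2 window held 3 CCAAT boxes on the coding strand, starting at -87, -54 and -21, each 33 bases from the next. A CHR started at 5, just past the last of them, and a second one at -167. The Ccnf window held CCAAT boxes starting at -147 and -107 and CHR matches starting at -130 and -14. Ccng1, which was not called, held 4 CCAAT boxes and no CHR. The second of the Ccnd3 windows held 1 CCAAT box, and neither motif was found in its first window or in those of Ccne1 and Ccng2. The motifs were searched on both strands and no matches overlapped. Of all 32851 windows 17.9% held a CHR, 37.4% a CCAAT box and 6.95% both. Among 253 genes called higher that had a window, 42.3% held a CHR, 64.0% a CCAAT box and 32.8% both, against 17.3%, 41.7% and 6.9% of 15614 tested genes with a window. The E2F motifs TTTCCCGC and TTTGGCGC were in none of the cyclin windows and in 1.56% of all windows. They were in 12.3% of the 253 genes called higher, against 2.6% of the 15614 tested genes. A match is a string of letters and does not show binding.

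**Figure D2:**
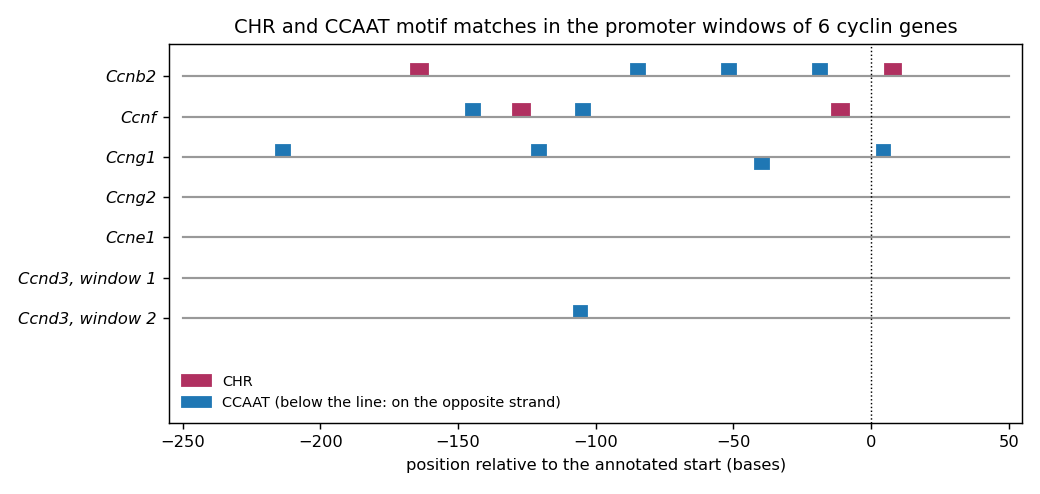
Matches of the CHR (red) and the CCAAT box (blue) in 7 promoter windows of 6 cyclin genes, by position in bases from the annotated start (dotted line); boxes under a line are on the opposite strand. Ccnb2 and Ccnf hold both motifs, Ccng1 holds 4 CCAAT boxes, and a CHR is in no other window shown.

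The E type cyclins did not pass. Ccne2 (probe set 10503264), which with Ccne1 activates Cdk2 at the entry to S phase, stood at 5.74, 5.12 and 5.72 on the GFP-positive arrays and at 4.35, 4.86 and 5.11 on the GFP-negative arrays. The groups just failed to overlap, with GFP-positive array 2 and GFP-negative array 3 nearly level. Its difference was 0.76 ± 0.23 (95% interval 0.23 to 1.28, adjusted p = 0.25, limma), a value of 1.69-fold. With array weights, which count arrays that deviate more for less, the difference was 1.02 and it passed (adjusted p = 0.033). Ccne1 (probe set 10562563) stood at 4.48, 5.33 and 4.98 on the GFP-positive arrays and at 4.74, 4.56 and 5.0 on the GFP-negative arrays. These groups overlapped, at levels near the array medians. The difference was 0.17 ± 0.22 (95% interval -0.33 to 0.66, adjusted p = 0.92, limma), and it was -0.035 without GFP-positive replicate 2.

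None of the D type cyclins passed. Ccnd1 (probe set 10569646), the D type cyclin best known from regenerating liver, stood at 6.29, 6.42 and 6.19 on the GFP-positive arrays and at 6.42, 7.92 and 6.50 on the GFP-negative arrays. GFP-negative array 2 stood apart, and the other values of both groups lay close together. The difference was -0.65 ± 0.34 (95% interval -1.42 to 0.13, adjusted p = 0.67, limma), and -0.16 without GFP-negative replicate 2. Within numbers 1, 2 and 3 it was -0.12, -1.50 and -0.31. Ccnd1 was thus not higher in GFP-positive cells in any same-numbered comparison.

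Ccnd2 (probe set 10548105) and Ccnd3 (probe set 10445688) encode D type cyclins that are prominent in blood and lymphoid cells among others. Ccnd2 stood at 5.49, 5.71 and 5.24 on the GFP-positive arrays and at 5.56, 5.36 and 5.66 on the GFP-negative arrays. Ccnd3 stood at 5.39, 5.63 and 5.54 on the GFP-positive arrays and at 5.53, 5.48 and 5.41 on the GFP-negative arrays. The groups overlapped for both genes. The difference was -0.04 ± 0.16 for Ccnd2 (95% interval -0.41 to 0.33, adjusted p = 0.98) and 0.05 ± 0.14 for Ccnd3 (95% interval -0.26 to 0.35, adjusted p = 0.97, limma). Changes of the size seen for Ccna2, Ccnb2 or Ccnf lay outside both intervals. The sign of either difference turned when arrays were left out, so neither has a direction.

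The G type cyclins were not called. Ccng2 (probe set 10523297) stood at 6.10, 6.76 and 6.71 on the GFP-positive arrays and at 5.35, 5.83 and 6.08 on the GFP-negative arrays. Its lowest GFP-positive value was just above its highest GFP-negative value. The difference was 0.77 ± 0.23 (95% interval 0.25 to 1.29, adjusted p = 0.24, limma), a value of 1.70-fold, and it was 0.75, 0.93 and 0.62 within numbers 1, 2 and 3. Ccng2 was thus not lower in the GFP-positive cells in any same-numbered comparison. Ccng1 (probe set 10385271) stood at 8.80, 8.86 and 8.37 on the GFP-positive arrays and at 8.52, 8.47 and 8.21 on the GFP-negative arrays. The groups overlapped, although within the numbers the difference was 0.28, 0.39 and 0.16. Over the arrays it was 0.28 ± 0.17 (95% interval -0.11 to 0.66, adjusted p = 0.76, limma).

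**Figure D3:**
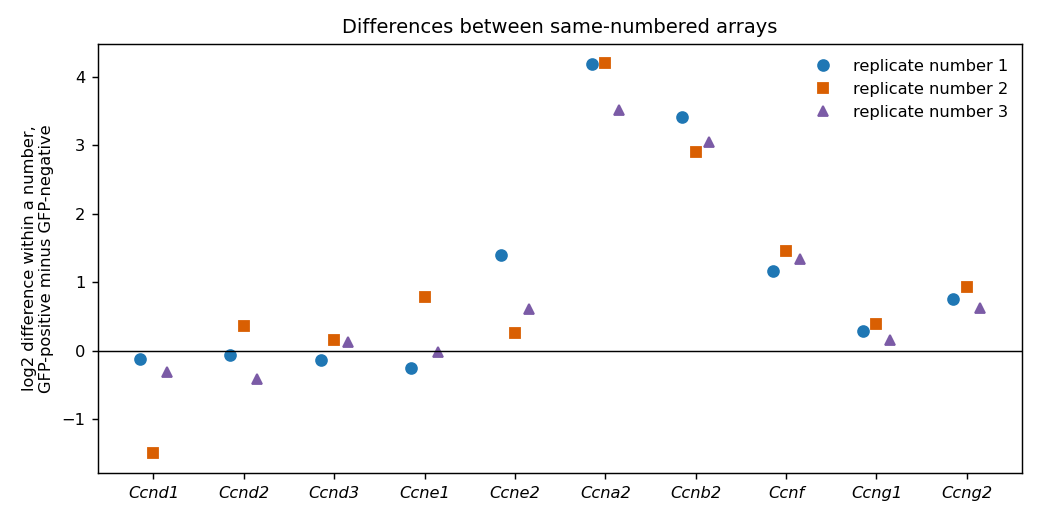
Log2 difference between the GFP-positive and the GFP-negative array of the same replicate number for each of the 10 cyclins. Ccna2, Ccnb2 and Ccnf lie above 1 in all 3 numbers, Ccne2, Ccng1 and Ccng2 lie above 0 in all 3, and Ccnd1 lies below 0 in all 3 with -1.50 in number 2.

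The sizes of the differences were also set against each other in 10 pairs of cyclins, by the log2 ratio of 2 probe sets on each array. The difference of Ccna2 exceeded that of Ccnb2 by 0.84 ± 0.19, that of Ccne2 by 3.21 ± 0.32 and that of Ccnd1 by 4.61 ± 0.58 (SE, n = 3 arrays a group). In these 3 pairs the ratios of the groups did not overlap, and the two-sided exact permutation p was 0.1, the smallest that 3 against 3 arrays allow (0.2 adjusted over the 10 pairs). The permutation shuffled all arrays and did not keep same-numbered arrays together, although both fractions came from the same livers. No size is given for the pairs of Ccnf with Ccna2 and with Ccnb2, because the GFP-negative mean of Ccnf lay below the array medians. Ccne2 lay below the array median on GFP-negative array 1 (4.35 against 4.64), and Ccnd1 stood high on GFP-negative array 2 (7.92). The sizes of their pairs with Ccna2 depend on those arrays. In the remaining pairs, all within a type, the ratios overlapped. Ccne2 exceeded Ccne1 by 0.59 ± 0.48 (exact p = 0.3) and Ccng2 exceeded Ccng1 by 0.49 ± 0.43 (exact p = 0.4). Ccnd1 lay below Ccnd2 by a difference of -0.60 ± 0.58 (exact p = 0.4) and below Ccnd3 by -0.69 ± 0.49 (exact p = 0.2), and Ccnd2 differed from Ccnd3 by -0.09 ± 0.17 (exact p = 0.7).

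Of 18 other cyclins measured, limma called none in either direction (1 higher and 1 lower at an unadjusted p below 0.05), with 6 above and 12 below 0 and a median difference of -0.02, against -0.03 over all genes. They include Ccna1, the A type cyclin of the germ line (-0.01 ± 0.15), and Ccnb3, a B type cyclin known from meiosis (-0.05 ± 0.15). Both lay below the array medians in both groups. The cyclins that serve transcription and its kinases, Ccnc, Ccnh, Ccnk, Ccnl1, Ccnl2, Ccnt1 and Ccnt2, ran from -0.18 (Ccnh) to 0.42 (Ccnl1). Ccni, Ccnj, Ccnjl, Ccno, Ccnq, Ccny and Cntd1 ran from -0.27 (Ccnj) to 0.22 (Cntd1). Of these, Ccnj, Ccnjl, Ccno and Cntd1 lay below the array medians in both groups. The largest differences were those of the cyclin Y relative Ccnyl1 (0.64 ± 0.16, adjusted p = 0.11, limma) and of Cnppd1, which has a cyclin-like domain (-0.51 ± 0.14, adjusted p = 0.17). Ccnyl1 too lay below the array medians in both groups.

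**Figure D4:**
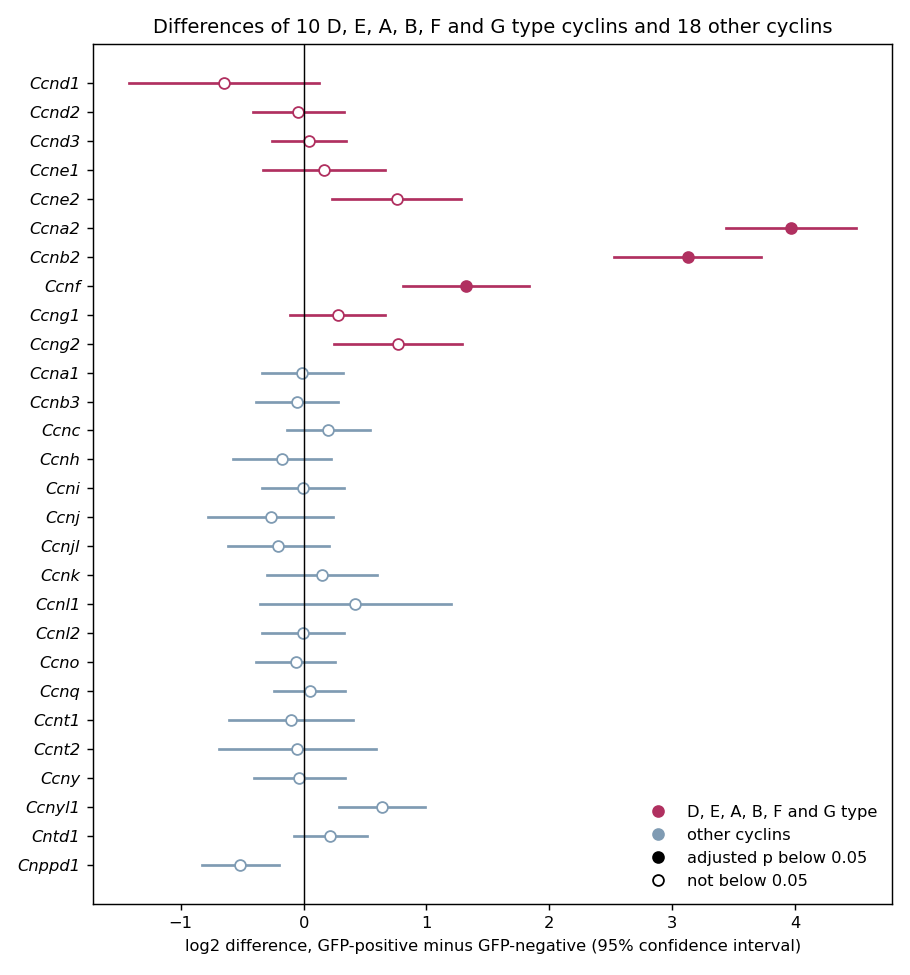
Log2 difference, GFP-positive minus GFP-negative, with its 95% confidence interval from limma. Shown are the 10 D, E, A, B, F and G type cyclins (red) and 18 other cyclins (blue-grey), which include Ccna1 and Ccnb3. Filled points have an adjusted p below 0.05. Ccna2, Ccnb2 and Ccnf are the filled points, and the other cyclins lie between -0.51 and 0.64.

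Among the kinases that the cyclins bind, Cdk1 rose and the other 11 of 12 measured were not called. Cdk1, the partner of cyclins A2 and B2, stood at 9.67, 9.86 and 9.92 on the GFP-positive arrays and at 5.63, 5.12 and 5.19 on the GFP-negative arrays (difference 4.51 ± 0.17, adjusted p = 1.2e-06, limma). Cdk2, the partner of the E type cyclins and of cyclin A2, differed by 0.17 ± 0.16 (adjusted p = 0.87). Of the partners of the D type cyclins, Cdk4 differed by 0.03 ± 0.22 (adjusted p = 0.98). Cdk6 stood at 6.57, 6.67 and 6.61 on the GFP-positive arrays and at 7.44, 7.33 and 6.78 on the GFP-negative arrays, a difference of -0.57 ± 0.18 that did not pass (adjusted p = 0.30, limma). Without GFP-negative replicate 3, Cdk6 was called lower. Cdk2, Cdk4 and Cdk6 are named for their roles as partners.

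Of 7 inhibitors and related regulators of CDKs measured, 2 rose and none fell, and the median difference was 0.63. Cdkn1a was listed but had no probe set of its own and is not among the 7. Cdkn3, a phosphatase that acts on Cdk1 and Cdk2, rose 6.01-fold (2.59 ± 0.19, adjusted p = 5.4e-05, limma). Cdkn2c, the p18 inhibitor of the kinases of D type cyclins, rose 4.30-fold (2.10 ± 0.18, adjusted p = 0.00014). Cdkn1b, the p27 inhibitor of the kinases of cyclins E and A, stood at 7.93, 9.29 and 8.22 on the GFP-positive arrays and at 7.43, 7.97 and 7.73 on the GFP-negative arrays, with overlapping groups (0.77 ± 0.31, adjusted p = 0.49).

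Of 29 genes of cyclin destruction measured, 5 rose and none fell (median difference 0.15). Ube2c and Ube2s, the ubiquitin-conjugating enzymes of the anaphase-promoting complex, were higher by at least 6.46-fold and by 4.0-fold, and Cdc20, which brings cyclins to it, by 6.58-fold (limma adjusted p = 1.0e-05, 0.0016 and 1.3e-05). Cks1b, which helps the ligase subunit Skp2 to recognise p27, rose 4.18-fold (adjusted p = 0.00023). Fbxo5, an inhibitor of the anaphase-promoting complex, was higher by at least 2.35-fold (adjusted p = 0.044). It was named after its values were seen, and its call was lost without any single array other than GFP-negative 1 (highest adjusted p = 0.18). Fzr1, the activator that replaces Cdc20 after mitosis, differed by -0.01 ± 0.14, and Fbxw7, which targets cyclin E, by -0.14 ± 0.15. Fbxo31 and Ambra1, which target D type cyclins, differed by -0.19 ± 0.18 and 0.15 ± 0.20, and these 4, named for their roles, were not called (adjusted p of 0.87 or more).

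Genes that share regulators with the cyclins were counted in the same way. Of 29 measured G2/M genes of the programme of MuvB and the factor FoxM1, to which Ccnb2 and Ccnf are usually assigned, 28 rose and none fell (median difference 3.33, from 0.04 to 4.71). The differences of Ccna2 (3.97) and Ccnb2 (3.12) lay within the range of the 28 called genes. The measured difference of Ccnf (1.32) lay below all 28. Prc1, which bundles spindle microtubules, the spindle motor Kif11, Cdk1 and the topoisomerase Top2a had the largest measured differences of the list, 4.71, 4.56, 4.51 and 4.45. The GFP-negative means of Prc1 and Kif11 did not reach the array medians, and their rises were at least 13.3-fold and at least 19.5-fold. The remaining member, Mybl2, which encodes the MuvB partner B-Myb, differed by 0.04 ± 0.18 (adjusted p = 0.98, limma).

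Of 28 measured G1/S targets of E2F factors, the class to which the E type cyclins belong, 14 rose and none fell. All 28 lay above 0 (median 0.87), against 44.3% of all genes. The 4 called genes with the largest measured differences were the ribonucleotide reductase genes Rrm2 (2.73 ± 0.20) and Rrm1 (2.09 ± 0.19), the p107 gene Rbl1 (2.19 ± 0.16) and the polymerase gene Pole (1.88 ± 0.24), with limma adjusted p-values of 0.0024 or less. The GFP-negative means of Rbl1 and Pole lay below the array medians, so their rises were at least 3.04-fold and at least 2.81-fold. With 1 array left out, 11 to 15 of the 28 were called. The differences of Ccne1 (0.17) and Ccne2 (0.76) lay below the median of this list.

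None of 21 measured p53 targets, the class of Ccng1, was called by limma (2 higher and 0 lower at an unadjusted p below 0.05), with a median difference of -0.02. Cdkn1a, Bax and Trp53 were listed but had no probe set of their own and are not among the 21. The largest difference was that of Mdm4, a p53 inhibitor (0.70 ± 0.15, adjusted p = 0.054, limma). None of 20 measured FoxO targets, to which Ccng2 is counted in many cells, was called either (1 higher and 2 lower at an unadjusted p below 0.05). The list counts Foxo1, Foxo3 and Foxo4 themselves. Its median was -0.19, with 15 of 20 below 0, where 44.3% of all genes lay above 0. Ccng2, which was not called, lay at 0.77. Cdkn1b, described above, had the largest difference of that list. Of 19 measured genes that act upstream or alongside the D type cyclins, 1 rose and 1 fell (median -0.04). The rise was that of Rbl1. The fall was that of Mycn, which encodes N-Myc, at 4.42, 4.72 and 4.55 on the GFP-positive arrays and at 5.26, 5.21 and 5.28 on the GFP-negative arrays (-0.69 ± 0.14, adjusted p = 0.042, limma). The GFP-positive mean of Mycn lay below the array medians. Mycn was not called with the replicate number as a block (adjusted p = 0.092), nor without any single array other than GFP-positive 2.

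**Figure D5:**
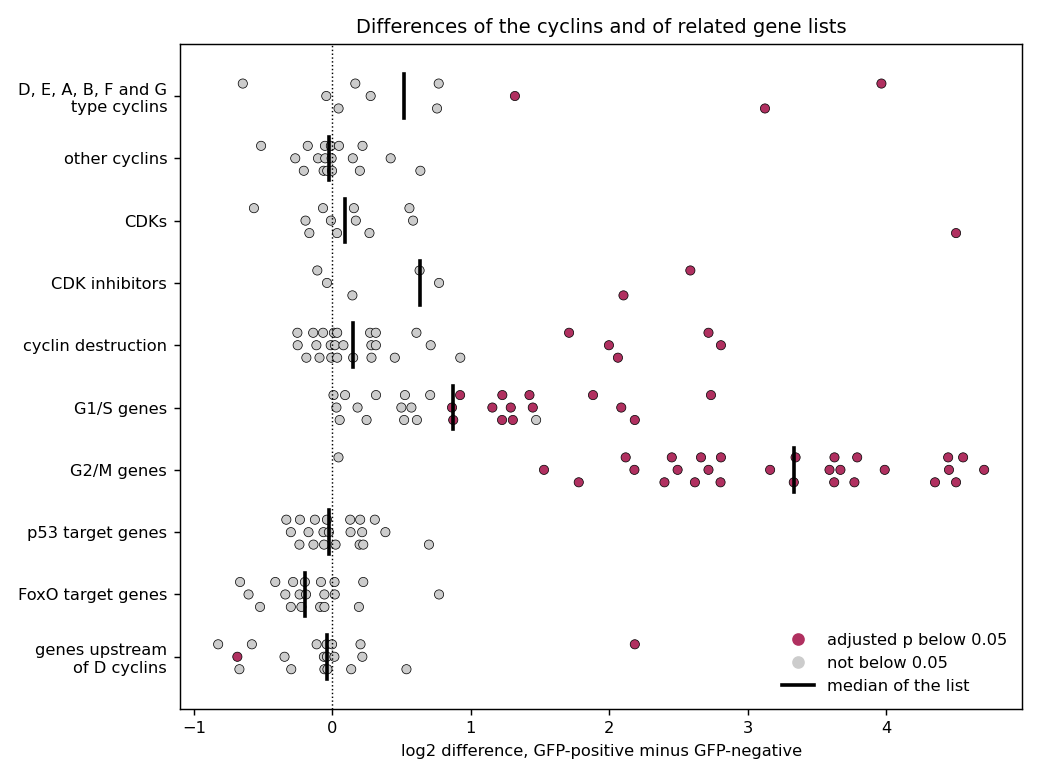
Log2 difference, GFP-positive minus GFP-negative, of each measured gene in the 10 cyclins and 9 related lists; points in red have an adjusted p below 0.05 and the bar is the list's median. The G2/M genes reach 4.71 with a median of 3.33, the G1/S genes have a median of 0.87, and the other cyclins and the p53 targets lie around 0.

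The median deposited intensity per array was 24.3 to 26.7, and precision is limited by having 3 arrays in each fraction. Hepatocyte markers were high in both fractions, with a mean log2 level of 11 genes of 12.1 to 12.3 on the GFP-positive and 12.3 to 12.4 on the GFP-negative arrays, and limma called none (0 at an unadjusted p below 0.05). Lists of 12 Kupffer cell, 12 endothelial, 12 stellate, 7 cholangiocyte, 12 lymphoid, 7 erythroid and 10 neutrophil markers had mean log2 levels of 3.80 to 5.47 on GFP-positive arrays and 3.71 to 5.62 on GFP-negative arrays, near the array medians. Only the Kupffer cell marker Clec4f was called, and it was lower in GFP-positive cells (-0.68 ± 0.13, adjusted p = 0.032, limma). It was not called with the replicate number as a block (adjusted p = 0.077) or without any single array. At an unadjusted p below 0.05, 2 Kupffer cell, 2 endothelial, 2 stellate, 1 erythroid and 1 neutrophil markers were lower and 0 higher. The largest differences of the other marker lists ran from -0.25 (Cyp2e1) over -0.31 (Onecut2), -0.34 (Igll1), -0.65 (Car1), -0.71 (Cdh5) and -0.86 (Dcn) to -0.97 (S100a8). The medians were -0.23 for Kupffer cell, -0.20 for endothelial, -0.20 for stellate, -0.05 for cholangiocyte, 0.02 for lymphoid, -0.12 for erythroid, -0.14 for neutrophil and -0.13 for hepatocyte markers. The part of other cell types in the values of Ccnd1, Ccnd2 and Ccnd3 was not tested.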

How the data were processed

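The authors deposited an intensity for every probe set on every array, made with RMA, a tool named in the submitters' processing notes. Its version and settings: not given in the sources used here. The intensities are linear, so log2 was taken first, with no further normalization and no filter. Of 35512 probe sets, 21789 have 1 gene symbol in the platform annotation, and the probe set of highest mean stood for each of 19938 genes. Symbols were updated through Entrez identifiers with a GRCm38.p6 gene table. Groups were compared with limma 3.58.1 in R 4.3.3 (lmFit, eBayes, 4 residual degrees of freedom), with Benjamini-Hochberg adjustment over all genes at 0.05, after a test on simulated data. Single ratios were compared by exact permutation in scipy 1.17.1.

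The cyclins and lists were chosen with earlier results of these data known. Named were all 10 cyclins, every other cyclin measured, up to 4 called genes per list by size, or 1 gene by size of difference in lists without a call, and up to 2 for marker lists. A list of proposed cyclin F substrates held genes of uncertain role and is not reported. Folds from a GFP-negative mean below the array medians are given as lower bounds, a choice made after seeing the data, with lower values raised to those medians. These bounds do not allow for the spread between arrays.

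In the fit with a block, same-numbered arrays were treated as pairs from 1 mouse, because both fractions came from the same 3 livers per the design text; the labels do not tie numbers to mice. The female transcript Xist stood at 9.80 on GFP-positive and 9.03 on GFP-negative array 2 and at most at 4.04 elsewhere, which leaves numbers 1 and 3 unresolved. The correlation of same-numbered arrays, after subtracting group means, was 0.20, 0.06 and -0.05 for numbers 1, 2 and 3. Between differently numbered arrays it ran from -0.19 to 0.10, and the values of numbers 2 and 3 lay inside that range.

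Other settings were quantile normalization, median centring, leaving out the dimmest genes, other treatments of probe sets, an added constant of 16, an intensity trend, robust eBayes, array weights, the replicate block, and leaving out arrays.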

Additional observations from a re-analysis of the deposited data

How the results depend on the processing

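Each result was recomputed under 20 other settings, 9 of which leave out arrays. Ccna2 (3.43 to 4.22) and Ccnb2 (2.81 to 3.31) were called under all 20, and 2 to 4 of the 10 cyclins were called higher and none lower. Ccnf lost its call with 16 added (0.92) and with values raised to the array medians, a setting chosen after seeing the data (1.16). With arrays left out its difference was 1.11 to 1.45 without 1 GFP-positive array, 1.18 to 1.52 without 1 GFP-negative array and 1.25 to 1.40 without both arrays of a number. Its adjusted p was 0.11 without number 1 and 0.096 without number 2. Ccne2 was called with array weights (1.02) and under no other setting. Uncalled differences near 0 changed sign. Without 1 GFP-positive array, Ccnd2 ran from -0.158 to 0.078, Ccnd3 from -0.01 to 0.111 and Ccne1 from -0.035 to 0.392. Without 1 GFP-negative array, Ccnd2 ran from -0.128 to 0.024. Without both arrays of a number, Ccnd2 ran from -0.243 to 0.145, Ccnd3 from -0.009 to 0.14 and Ccne1 from -0.14 to 0.378. Ccnd3 was -0.027 with array weights. With the replicate number as a block, no cyclin changed its call (adjusted p of 0.002 for Ccnf and 0.051 for Ccng2), while Mycn, Clec4f and the G1/S gene Mcm5 lost theirs. Over all genes, 310 were higher, and 193, 282 and 182 without both arrays of number 1, 2 or 3. There were 23 lower genes, 12 with median centring, 53 with array weights, 9 without any single GFP-positive array, 6 to 29 without 1 GFP-negative array and 5, 9 and 7 without both arrays of number 1, 2 or 3. The causes were not tested. The mean levels of Ccne1 in both groups, and of Ccnf and Ccne2 in GFP-negative cells, lie near the array medians.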

Other observations

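Xist was high on both arrays of replicate number 2 and on no other array, so number and sex cannot be told apart here. The genes given next were picked after their values were seen, and each is highest or lowest on the number 2 array of both fractions. Ccnl1, a cyclin linked to splicing, stood at 6.52, 7.58 and 6.68 on GFP-positive arrays 1, 2 and 3 and at 6.26, 7.23 and 6.03 on GFP-negative arrays 1, 2 and 3. Myc stood at 4.73, 6.39 and 5.13 on the GFP-positive and at 5.98, 7.27 and 5.47 on the GFP-negative arrays. Btg2, an antiproliferative gene induced early after stimulation, stood at 7.29, 8.29 and 7.50 on the GFP-positive and at 7.29, 8.77 and 7.13 on the GFP-negative arrays. Egfr, the receptor of epidermal growth factor, was lowest there, at 9.99, 8.71 and 10.17 on the GFP-positive and at 10.20, 9.42 and 10.28 on the GFP-negative arrays. Ccnd1 was high in number 2 on the GFP-negative array (7.92), while its GFP-positive array of that number (6.42) lay with the rest. The share of all genes that are highest or lowest on the number 2 array of both fractions was not counted. Over all genes, the correlation of the number 2 arrays after subtracting group means was 0.06, inside the range of differently numbered arrays (-0.19 to 0.10). A cause was not tested.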
